A study of Homo sapiens with 6 samples.

Results

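The BCL2 family regulators of apoptosis were measured here in hepatocellular carcinoma (HCC) cells that had survived sublethal heat, with and without periostin (POSTN). The set held 10 genes, namely BCL2, BCL2L1, BCL2L2, MCL1, BAX, BAK1, BCL2L11, BID, BAD and PMAIP1. Its members were all probe sets of the Affymetrix Human Genome U133 Plus 2.0 array whose annotation names exactly 1 of these symbols, which gave 34 of the 54613 probe sets tested, and 10 of the 19775 genes with a probe set of 1 symbol. The POSTN samples were MHCC97H cells, an established human HCC line, heated at 47 °C and then given 100 ng/mL of recombinant POSTN for 24 h (3 arrays). The control samples were the same line, heated in the same way and kept for 24 h at 0 ng/mL POSTN (3 arrays). Both groups therefore held heat survivors, no unheated cells were among the 6 samples, and a single line stands for HCC. POSTN, a matrix protein that cells secrete, signals through integrins, and the comparison asked how the transcripts of residual HCC cells respond to it.

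BCL2 family proteins decide whether the outer membrane of the mitochondrion is opened during apoptosis. The effectors BAX and BAK1 form pores in that membrane, and cytochrome c leaves through them and starts the caspase cascade. Anti-apoptotic members such as BCL2, BCL2L1 (BCL-XL), BCL2L2 (BCL-W) and MCL1 bind the effectors and the activators and hold them back. BH3-only members such as BCL2L11 (BIM), BID, BAD and PMAIP1 (NOXA) report stress, either by engaging the effectors or by occupying the anti-apoptotic members, and in mouse liver the loss of BCL2L1 or MCL1 is known to cause apoptosis of hepatocytes.

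All values are log2 signals, and each difference is a difference of log2 signals. The table holds no detection calls, so the background level was set at a log2 signal of 5.98, the 95th percentile of the mean signals of 107 probe sets for olfactory receptor genes. A probe set is called above background when its mean over the 6 arrays exceeds that level. Of the 34 BCL2 family probe sets, 26 lay above background and 8 did not. Every gene of the family except BCL2 had at least 1 probe set above background, and the 4 probe sets of BCL2 all lay within the background range. Levels were not ranked between genes, since probe sets differ in how well they bind. The arrays had median log2 signals of 5.86 to 5.95 with POSTN and 5.80 to 5.87 in control, with 47.7% to 49.7% of probe sets above background. Of 9 hepatoma markers 7 were above background, with KRT18 at a mean log2 signal of 15.0 and ALB at 6.55, while APOA1 and SERPINA1 were within the background range. Of 7 stellate and fibroblast markers 3 were above background, COL1A1 (8.22), LUM (11.2) and DCN (9.26), and COL1A2, COL3A1, PDGFRB and ACTA2 were not. COL1A1 exceeded the background level on 217430_x_at alone, and its other probe sets had means of 2.72 to 4.25. Of 3 leukocyte markers 1 was above it, CD3E at 6.19, with PTPRC at 3.80, and of 3 endothelial markers 1, PECAM1 at 10.1, with CDH5 at 2.48.

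Between POSTN and control cells, no BCL2 family member above background passed a test. In limma, 0 of the 34 probe sets had an adjusted p under 0.05, where 0% of the array did, and the lowest adjusted p of the array was 1.0. At an unadjusted p under 0.05 there were 2 of 34, against 3.02% of the array. The 26 probe sets above background differed by -0.32 to 0.25 between POSTN and control, 15 of them higher and 11 lower with POSTN. Their median difference was 0.011 and their median absolute difference 0.074, beside a median absolute difference of 0.092 over all 25320 probe sets above background. The 95% interval lay within a 2-fold change in either direction for 25 of the 26. The exception was BCL2L11 222343_at, whose interval began at -1.07. In a bulk sample, fewer cells of one kind and less RNA per cell cannot be told apart. Separate cultures for the 3 samples of a group are stated neither by the labels nor by the methods, and the p-values then cover only the spread of these samples, which may be technical.

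**Figure D1:**
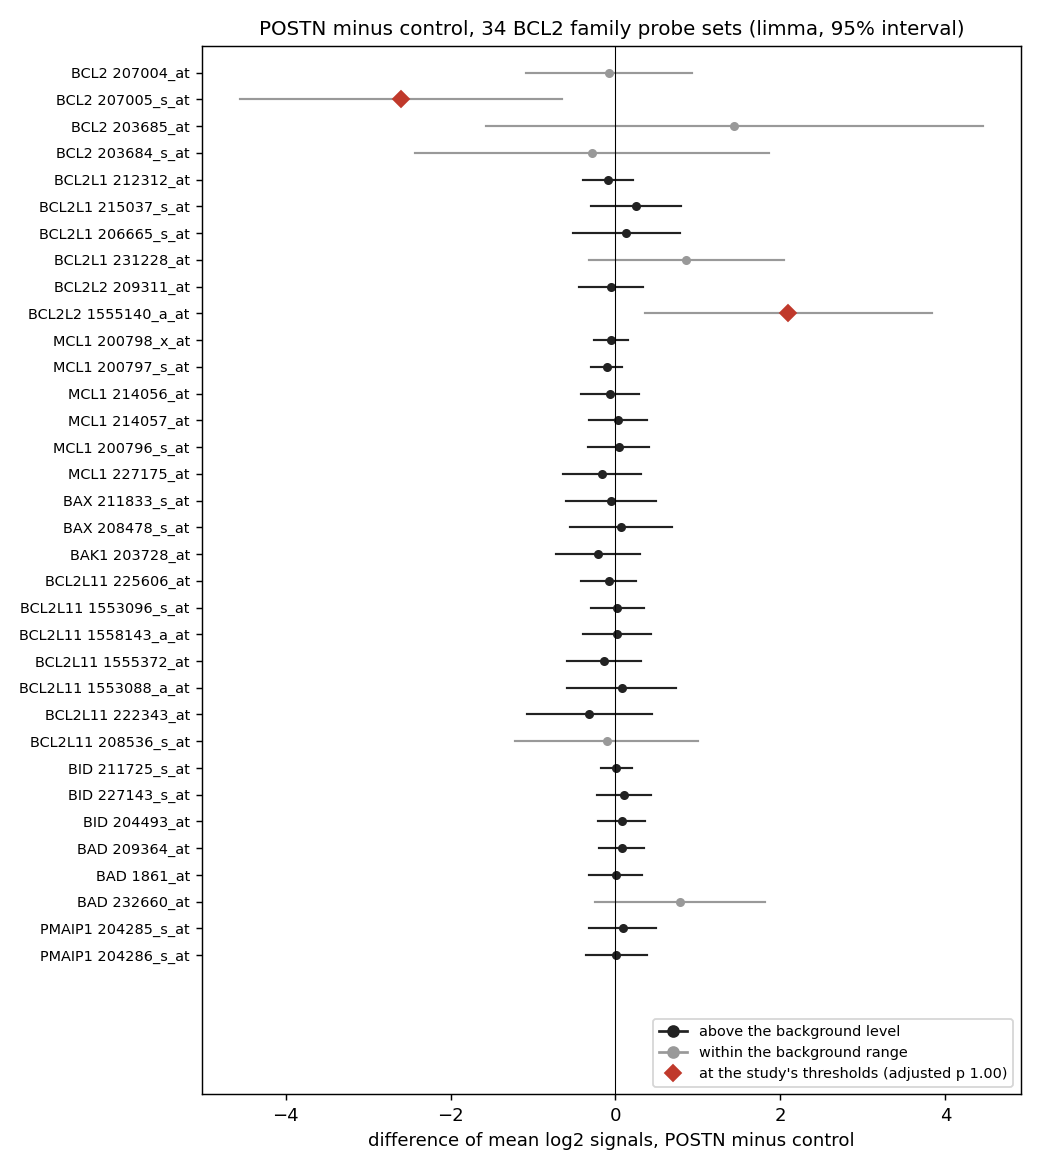
Difference of mean log2 signals, POSTN minus control, for the 34 BCL2 family probe sets, with the 95% interval from limma (n = 3 arrays in each group). Black marks stand for probe sets above background and grey ones for those within the background range, and the 2 red diamonds, BCL2 207005_s_at and BCL2L2 1555140_a_at, lie in that range.

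Among the anti-apoptotic genes, MCL1, a short-lived guard of the outer membrane, was read by 6 probe sets, all above background. Its brightest, 200798_x_at, had log2 signals of 13.24, 13.33 and 13.44 with POSTN, against 13.27, 13.49 and 13.39 in control. The groups overlapped, and the difference was -0.05 with a standard error of 0.09 and a 95% interval from -0.25 to 0.15. The next, 200797_s_at, had log2 signals of 12.97, 12.80 and 12.79 with POSTN, against 13.04, 12.91 and 12.93 in control, a difference of -0.11. Here each POSTN array lay below the control array of the same number, but the groups overlapped and the unadjusted p was 0.060 with the replicate number as a block. Of the 6 MCL1 probe sets 2 were higher and 4 lower with POSTN, between -0.16 and 0.04.

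BCL2L1, whose long product BCL-XL holds BAX and BAK1 in check, was read by 4 probe sets, 3 of them above background. Its brightest, 212312_at, had log2 signals of 10.44, 10.57 and 10.58 with POSTN, against 10.31, 10.75 and 10.78 in control. The POSTN values lay between the lowest and the highest control value, and the difference was -0.09 with a standard error of 0.14 and an interval from -0.39 to 0.22. The dimmer 215037_s_at and 206665_s_at differed by 0.25 and 0.13, so the sign of the POSTN difference was not the same on all probe sets of BCL2L1.

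BCL2L2, which encodes BCL-W, was read by 2 probe sets. The brightest, 209311_at, had log2 signals of 9.02, 9.64 and 9.55 with POSTN, against 9.31, 9.59 and 9.49 in control, a difference of -0.06 with a standard error of 0.17. POSTN array 1 was the lowest of the 6 and POSTN array 2 the highest, so the groups overlapped. The other, 1555140_a_at, was within the background range and had log2 signals of 5.63, 6.01 and 6.11 with POSTN, against 4.85, 4.43 and 2.20 in control. The groups did not overlap and averaged 5.92 ± 0.25 with POSTN and 3.82 ± 1.42 in control (SD, n = 3 each), yet the spread in control rested mainly on array 3.

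BCL2 itself, the founding inhibitor of the family, was within the background range on all 4 probe sets. The brightest, 207004_at, had log2 signals of 5.30, 6.19 and 6.21 with POSTN, against 5.52, 6.20 and 6.21 in control, a difference of -0.07 with a standard error of 0.45. The array numbered 1 was the lowest in each group, and the other arrays of both groups had nearly equal values. On 207005_s_at the log2 signals were 3.59, 1.64 and 2.39 with POSTN, against 6.04, 5.02 and 4.35 in control. The groups did not overlap and averaged 2.54 ± 0.98 with POSTN and 5.14 ± 0.85 in control (SD, n = 3 each), but only control array 1 exceeded the background level. The remaining 203685_at and 203684_s_at had differences of 1.44 and -0.28 with overlapping groups, so the 4 probe sets gave no common sign for BCL2.

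With the p taken from limma, these dim probe sets of BCL2 and BCL2L2 were the 2 members that met the study's thresholds. The methods set these at a fold change over 2 or under 0.5 with an unadjusted p under 0.05. In limma 2 of 34 met them, against 2.56% of the array, where 1398 probe sets did and only 45 of these were above background. With the p of the methods' own test, BCL2 207005_s_at met them and BCL2L2 1555140_a_at did not. BCL2 207005_s_at was lower with POSTN by limma (-2.60, 95% interval -4.56 to -0.64, unadjusted p 0.014, adjusted p 1.0). BCL2L2 1555140_a_at was higher (2.10, 95% interval 0.35 to 3.84, unadjusted p 0.023, adjusted p 1.0). No fold is given, because the mean of each group was at or below the background level. The exact two-sided permutation test over the 6 arrays gave 0.1 for both, the smallest p that 3 against 3 arrays allow. BCL2 207005_s_at no longer met the thresholds without control array 1 (unadjusted p 0.067), and BCL2L2 1555140_a_at no longer met them without POSTN array 2 (0.061), POSTN array 3 (0.068) or control array 3 (0.054). The groups did not overlap in 3 of the 34 members, or 8.82%, against 7.94% of the array, and none of the 3 was above background.

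**Figure D2:**
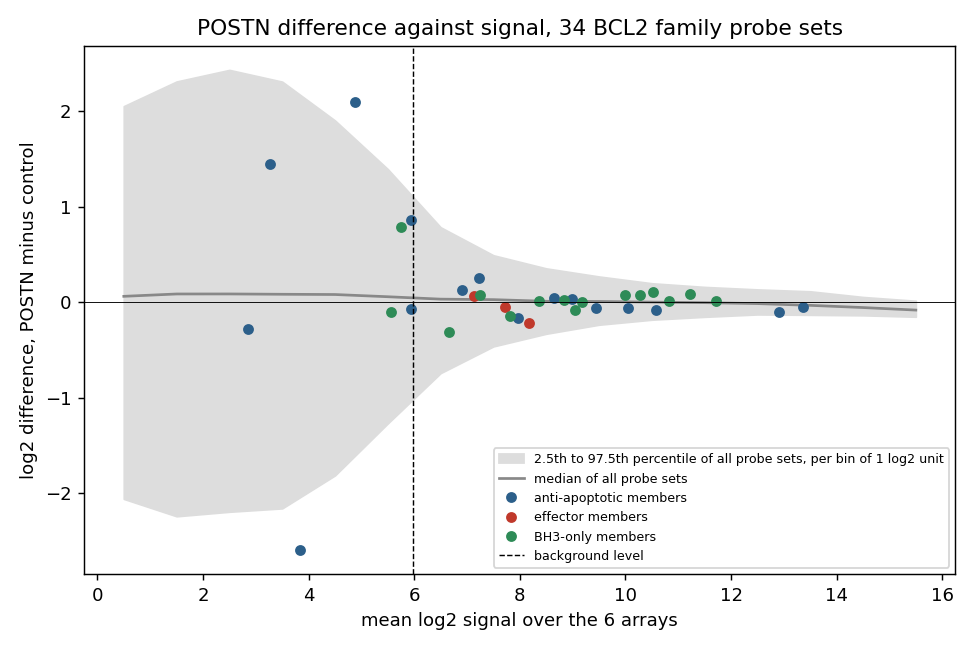
Difference of log2 signals, POSTN minus control, against the mean log2 signal over the 6 arrays for the 34 BCL2 family probe sets, by role, with the grey band holding the central 95% of all probe sets at each signal. The members above background lie between -0.32 and 0.25, and the wide differences belong to members left of the dashed background level.

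Of the effectors, BAX, which moves from the cytosol to the mitochondrion, was read by 2 probe sets above background. Its brightest, 211833_s_at, had log2 signals of 7.79, 7.64 and 7.67 with POSTN, against 8.24, 7.41 and 7.62 in control. The control arrays held both the highest and the lowest value, and the difference was -0.05 with a standard error of 0.24. The second, 208478_s_at, differed by 0.07. BAK1, which resides in the outer membrane, was read by 203728_at alone, at 8.48, 7.77 and 7.97 with POSTN, against 8.52, 8.0 and 8.35 in control. Each POSTN array was below its numbered control, but the groups overlapped, and the difference of -0.22 (standard error 0.23, 95% interval -0.73 to 0.29) did not pass the test.

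Of the BH3-only genes, BCL2L11 encodes BIM, an activator that binds all the anti-apoptotic members, and was read by 7 probe sets, 6 of them above background. Its brightest, 225606_at, had log2 signals of 9.14, 8.95 and 8.93 with POSTN, against 9.33, 9.0 and 8.94 in control. The groups overlapped with a difference of -0.08 (standard error 0.15), and the 6 probe sets above background were split into 3 higher and 3 lower with POSTN. BID, which carries the signal of death receptors to the mitochondrion once caspase-8 has cut it, was read by 3 probe sets, all above background. Its brightest probe set, 211725_s_at, had log2 signals of 11.76, 11.67 and 11.76 with POSTN, against 11.67, 11.72 and 11.76 in control, a difference of 0.01 with a standard error of 0.08. The other BID probe sets, 227143_s_at and 204493_at, differed by 0.10 and 0.07.

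BAD, a sensitizer that survival kinases switch off by phosphorylation, was read by 3 probe sets, 2 of them above background. Its brightest, 209364_at, had log2 signals of 9.89, 10.11 and 10.06 with POSTN, against 9.89, 9.83 and 10.11 in control, a difference of 0.07 with a standard error of 0.12. The groups overlapped, and the second probe set above background, 1861_at, differed by 0.0018. The dim 232660_at was at 6.02, 5.97 and 6.42 with POSTN, against 5.03, 5.11 and 5.91 in control. Its groups did not overlap, but the difference of 0.78 had a standard error of 0.46 and an unadjusted p of 0.12.

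PMAIP1 encodes NOXA, a BH3-only protein that binds MCL1 above all and marks it for degradation. Its brightest probe set, 204285_s_at, had log2 signals of 11.53, 11.18 and 11.11 with POSTN, against 11.62, 10.92 and 11.03 in control. The groups overlapped, with a difference of 0.09, a standard error of 0.18 and a 95% interval from -0.32 to 0.49. The second, 204286_s_at, had log2 signals of 11.24, 10.68 and 10.57 with POSTN, against 10.93, 10.89 and 10.64 in control, a difference of 0.01. On both probe sets the array numbered 1 was the highest of its group.

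By role, the brightest probe set was lower with POSTN for 4 of 4 anti-apoptotic genes (median difference -0.07) and for 2 of 2 effectors, and higher for 3 of 4 BH3-only genes (median 0.04). None of these 10 passed the test, and only BAK1 and BAD kept their sign under every alternative run. The counts take a single probe set per gene, and that of BCL2 was within the background range. BCL2L1, MCL1, BAX and BCL2L11 each had probe sets of both signs above background. For the 9 genes whose brightest probe set was above background, the 95% intervals ran from -0.73 to 0.49 on the log2 scale, which as folds of POSTN over control is 0.605 to 1.41. The widest of these intervals were those of BAK1 and BAX, and that of BID was the narrowest (-0.17 to 0.20).

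**Figure D3:**
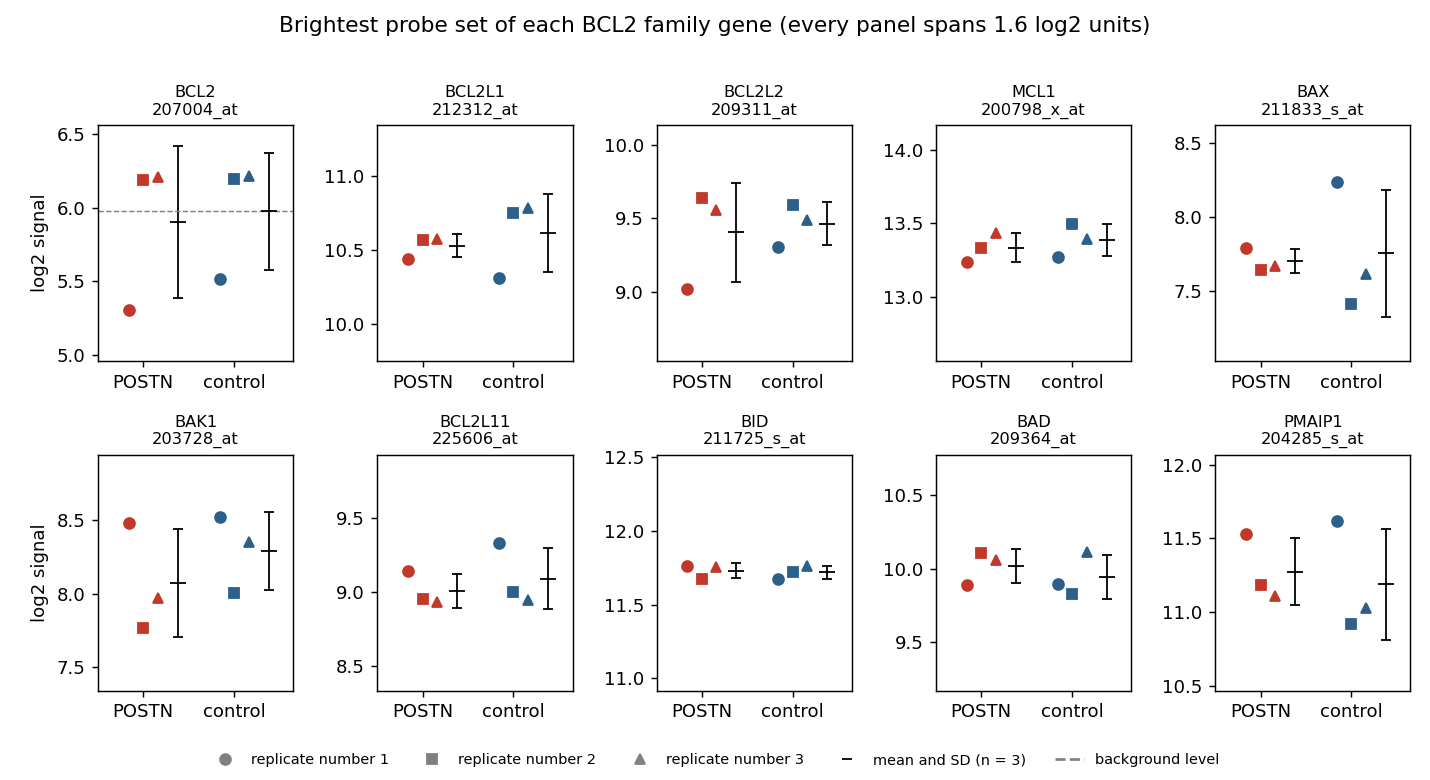
Log2 signal of the brightest probe set of each BCL2 family gene on every array, POSTN in red left of control in blue, with marker shapes for the replicate numbers and bars for the mean and SD (n = 3). The POSTN and control values overlap for all 10 genes, whereas the circles, the arrays numbered 1, stand at the top for PMAIP1, BAK1, BAX and BCL2L11 and at the bottom for BCL2, BCL2L1, BCL2L2 and MCL1.

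The arrays also differed by replicate number, which the labels give as 1, 2 and 3 in both groups without saying what a number stands for. Earlier results of these data had shown that the arrays numbered 1 stand apart, so the contrast of number 1 with the mean of numbers 2 and 3 was chosen on the same arrays, and its p-values are not independent evidence that they do. With the condition in the limma fit, 2 of the 34 BCL2 family probe sets had an adjusted p under 0.05, both probe sets of PMAIP1 and both higher in number 1. That is 5.88% of the members, against 6.21% of the array (3.21% higher in number 1). Among probe sets above background it is 2 of 26, or 7.69%, against 13.0%. Both shares lie near or under those of the array and say nothing particular of the family.

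PMAIP1 was higher on the arrays numbered 1. The mean log2 signal of 204285_s_at was 11.58 on the arrays numbered 1 and 11.06 on those numbered 2 and 3, a difference of 0.52 (standard error 0.08, adjusted p 0.0033) or 1.43-fold. On 204286_s_at the means were 11.09 on number 1 and 10.70 on numbers 2 and 3, a difference of 0.39 (standard error 0.10, adjusted p 0.043) or 1.31-fold. On both probe sets each of the 2 arrays numbered 1 was above all 4 others, although for 204286_s_at the margin was small, with control array 1 at 10.93 and control array 2 at 10.89. The call of 204285_s_at was lost without control array 1 (0.39, adjusted p 0.057) and that of 204286_s_at without POSTN array 1 (0.17, adjusted p 0.57) or POSTN array 3 (0.36, adjusted p 0.066). With an F-test over the 3 numbers, which singles out none of them, 204285_s_at passed (adjusted p 0.012) and 204286_s_at did not (0.090). Neither probe set passed without the mean-variance trend (adjusted p 0.46 and 0.56). Of all the alternatives, 7 of 13 lost the call of 204286_s_at and 2 of 14 that of 204285_s_at.

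**Figure D4:**
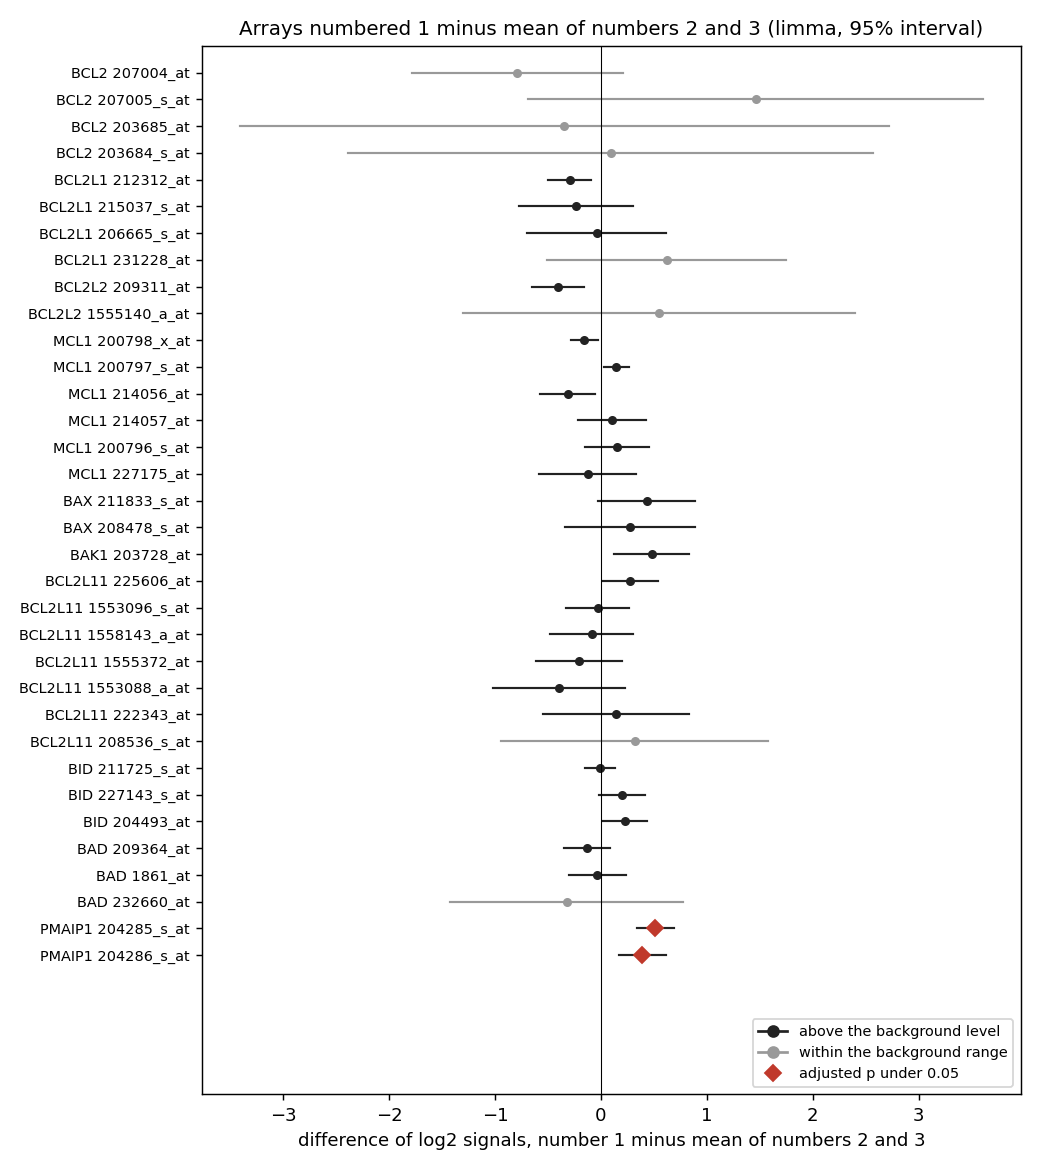
Difference of log2 signals, arrays numbered 1 minus the mean of numbers 2 and 3, for the 34 BCL2 family probe sets, with the 95% interval from limma (6 arrays, condition in the fit). The red diamonds are both PMAIP1 probe sets, and the intervals of 8 other members above background leave out 0 without passing the adjusted threshold.

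The promoter of PMAIP1 was searched for the letters TGACGT, the core of the site of CREB and ATF factors, on both strands, because PMAIP1 was the one member called between the replicate numbers and ATF4 is known to act on it during stress. This choice was made after the values had been seen. In the RefSeq promoter windows (GRCh38.p14, 250 bases before to 50 after a start), 8 of the 10 genes had an entry and 2 of these held the letters, PMAIP1 and BAD. Over the table, 9.64% of 27305 genes held them in at least 1 window. The stretches of 30 bases are printed in the direction of the gene with the matching letters in capitals. That of PMAIP1 is chr18:59899928-59899957 on the plus strand, with the match on the opposite strand and beginning 56 bases before the start, and that of BAD is chr11:64284741-64284770 on the minus strand, with the match 54 bases before an annotated start.
PMAIP1: tctagtttccctACGTCAccagggaagttc
BAD: gacctacccgagTGACGTtccgagaggtga
BAD 209364_at was not higher in number 1 (-0.14, adjusted p 0.55), and ATF4 200779_at differed by 0.09 (adjusted p 0.41). A match of 6 letters is a description of the sequence and no evidence of binding.

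The other members did not pass the adjusted threshold between the numbers. At an unadjusted p under 0.05 there were 10 members, all above background, which is 38.5% of the 26, against 32.0% of the array above background. Of these 10, 6 were higher and 4 lower in number 1. The arrays numbered 1 did not overlap the others in 12 of the 26 (46.2%), against 39.9%. Over the 26 the median difference was -0.02 and the median absolute difference 0.20, beside 0.02 and 0.21 for all probe sets above background.

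BAK1 203728_at was at 8.48 and 8.52 on the arrays numbered 1, against 7.77 to 8.35 on the others, a difference of 0.48 (standard error 0.16, adjusted p 0.13). BAX 211833_s_at was at 7.79 and 8.24 on number 1, against 7.41 to 7.67, a difference of 0.43 (adjusted p 0.32). On these probe sets the arrays numbered 1 lay above the 4 others, but on BAX 208478_s_at (0.27, adjusted p 0.70) they overlapped, with 7.63 and 7.01 on number 1, against 6.85 to 7.21. BCL2L11 225606_at was also higher without overlap (0.28, adjusted p 0.23), but 4 of the 6 BCL2L11 probe sets above background had a negative difference, down to -0.40 on 1553088_a_at.

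Among the anti-apoptotic genes, BCL2L2 209311_at was at 9.02 and 9.31 on number 1, against 9.49 to 9.64 on the others, a difference of -0.41 (standard error 0.11, adjusted p 0.063). BCL2L1 212312_at was at 10.44 and 10.31 on number 1, against 10.57 to 10.78, a difference of -0.30 (standard error 0.09, adjusted p 0.088). On these probe sets the arrays numbered 1 lay below all 4 others. On BCL2L1 215037_s_at (-0.23) and 206665_s_at (-0.04) they overlapped the others. MCL1 gave opposite signs on its bright probe sets, with -0.16 on 200798_x_at (adjusted p 0.16) and 0.14 on 200797_s_at (adjusted p 0.17), neither overlapping between the numbers. Of its 6 probe sets 3 were higher and 3 lower in number 1. The dimmer MCL1 214056_at, which is not an _x_at probe set, differed by -0.32 (adjusted p 0.17), also without overlap. A probe set ending in _x_at can bind other transcripts as well, and the part of this in the split of MCL1 was not tested.

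BID 204493_at (0.23, adjusted p 0.22) and 227143_s_at (0.20, adjusted p 0.34) were each without overlap on the high side in number 1, while the brightest BID probe set differed by -0.01. BAD 209364_at and 1861_at had differences of -0.14 and -0.04, and BCL2 207004_at one of -0.79 with a standard error of 0.45 (adjusted p 0.42). Neighbouring probe sets of one gene thus gave unequal differences for MCL1, BCL2L11 and BID. The number of members called was 5 without POSTN array 2, 4 without control array 2 and 1 without POSTN array 3. Over the whole array the same runs called 4451, 4496 and 2750 probe sets, against 3389 with all arrays, so the member counts rose and fell with those of the array.

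The genes around the family were taken from a list of 43, of which 38 were measured by 125 probe sets and 5 were not analysed here. By the brightest probe set per gene, 22 of the 38 were higher and 16 lower with POSTN, with a median difference of 0.02, and 0 passed an adjusted or an unadjusted p under 0.05. The 6 of lowest p above background were the caspase inhibitor XIAP (0.17), the mitochondrial channel VDAC3 (0.15), the initiator caspase CASP9 (0.25), the BCL2 family gene BCL2L15 (0.24), the protease HTRA2 (0.17) and the channel VDAC2 (-0.11). Each had an adjusted p of 1.0 in limma. With the replicate number as a block, 2 of the 38 had an unadjusted p under 0.05 in limma, where 4.76% of the array did. These were XIAP (0.017) and VDAC2 (0.049), and 0 of the 38 passed after adjustment. The dimmer XIAP 235222_x_at was above background and higher with POSTN without overlap (0.35, 95% interval 0.10 to 0.60, unadjusted p 0.011, and 0.0011 with the block), at adjusted p-values of 1.0 and 0.97, while the other XIAP probe sets had differences of both signs. Over all 125 probe sets, 3 dim ones met the study's thresholds with the p taken from limma, of BCL2L14, VDAC1 and FAS.

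Between the replicate numbers, 5 of the 33 list genes whose brightest probe set was above background passed an adjusted p under 0.05, where 16.6% of all such genes did, and among the BCL2 family it was 1 of 9. APAF1, the scaffold on which cytochrome c assembles the apoptosome, had log2 signals of 9.04, 8.07 and 8.09 with POSTN, against 9.02, 8.11 and 8.03 in control. It was higher in number 1 by 0.95 (204859_s_at, adjusted p 0.0026), and it was the one list gene called that was higher there. CDKN1A, an inhibitor of cyclin-dependent kinases, had log2 signals of 9.44, 10.25 and 10.24 with POSTN, against 9.0, 10.29 and 10.26 in control, and was lower in number 1 by limma (-1.04, adjusted p 0.0003). CFLAR, which keeps caspase-8 inactive upstream of BID, was lower on its 2 brightest probe sets (-0.56 on 209939_x_at, adjusted p 0.0004, and -0.49 on 210563_x_at, adjusted p 0.0017), both _x_at. Other CFLAR probe sets above background had differences of both signs. Among those higher in number 1 were 214486_x_at (0.52, adjusted p 0.18) and 209508_x_at (0.32, adjusted p 0.57), both without overlap. The dimmer 211317_s_at, which is not an _x_at probe set, was lower without overlap (-0.31, adjusted p 0.54). The stress factor DDIT3 (-0.34, adjusted p 0.0088) and USP9X, a deubiquitinase that stabilizes MCL1 (-0.25, adjusted p 0.023), were also lower on their brightest probe sets, but USP9X 229573_at, above background, was at a difference of 0.48 (adjusted p 0.060). VDAC2, the channel that holds BAK1 at the membrane, was next (-0.20, adjusted p 0.061).

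**Figure D5:**
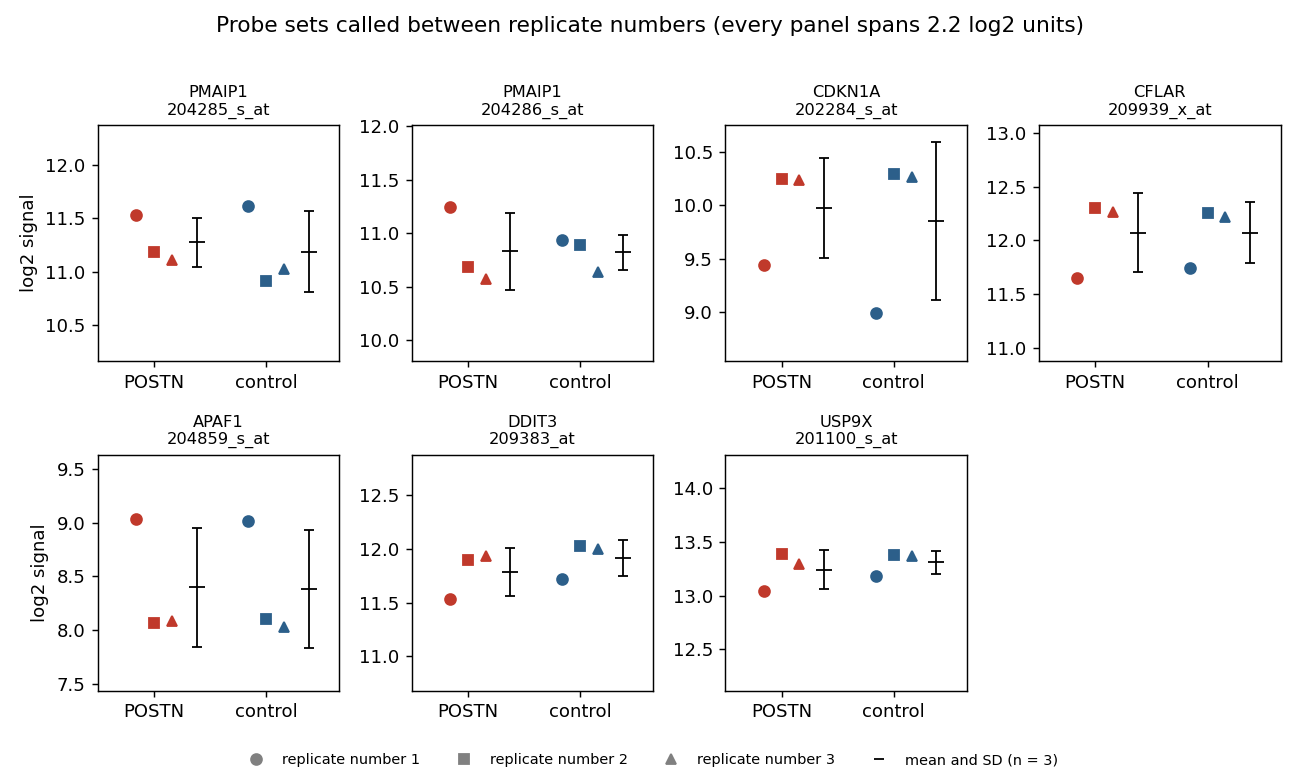
Log2 signal on every array of both PMAIP1 probe sets and of the 5 list genes called between the replicate numbers, POSTN in red left of control in blue, with marker shapes for the numbers and bars for the mean and SD (n = 3). The arrays numbered 1 are highest for PMAIP1 and APAF1 and lowest for CDKN1A, CFLAR, DDIT3 and USP9X in both groups.

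Some markers of cell types also differed by replicate number. Of the 22 marker genes measured, the brightest probe set was higher in number 1 for ALB, SERPINA1, FGB (2.65) and PECAM1 (0.51) and lower for DCN (-1.0), each at an adjusted p under 0.05. Over the array, 16.6% of genes whose brightest probe set was above background passed. The other hepatoma markers did not pass and went both ways. APOB (-0.65), TTR (-0.44), KRT18 (-0.16) and KRT8 (-0.03) were lower in number 1, and AFP (0.12) and the dim APOA1 were higher. The means were 7.79 in number 1 and 5.94 in the others for ALB and 7.81 in number 1 and 4.89 in the others for SERPINA1, the means of numbers 2 and 3 being within the background range, so no size of these differences is given. The summed linear signals of the 9 hepatoma markers were 46668 to 50627 in number 1 and 50076 to 54946 in numbers 2 and 3. Those of the 7 stellate and fibroblast markers were 2905 to 3379 in number 1 and 3441 to 3795 in the others, those of the 3 endothelial markers 1306 to 1546 in number 1 and 906 to 1179 in the others, and those of the 3 leukocyte markers 92.9 to 134 in number 1 and 112 to 165 in the others. The hepatoma sum rests mainly on KRT18 and KRT8, at mean log2 signals of 15.0 and 14.0, and says little of the other hepatoma markers. Likewise, the endothelial sum rests mainly on PECAM1 (10.1). The stellate and fibroblast sum rests mainly on LUM (11.2) and DCN (9.26), and LUM differed by only 0.03 between the numbers. The part of the cell type markers in the PMAIP1 difference was not tested. Between POSTN and control, 0 of the 22 markers had an unadjusted p under 0.05.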

How the data were processed

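Total RNA of 6 samples was hybridized to 1 array each. Per the labels and the methods, the authors processed the scans with MAS 5.0 and the affy package in R (versions: not given in the sources used here). Deposited values are log2 of MAS 5.0 signals, since linear signals average 500.0 on each array once the top and bottom 2% are dropped. MAS 5.0 subtracts background and mismatch signal, so that dim probe sets spread widely on the log2 scale: the median standard error of a POSTN difference was 0.17 for members above background and 0.66 for the others. Of 54675 probe sets, 62 Affymetrix controls were left out. The number of arrays limits the precision.

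Groups and replicate numbers came from the sample labels. Differences were fitted in R 4.3.3 with limma 3.58.1 (lmFit, eBayes with a mean-variance trend) on the values as deposited, without a filter, and adjusted by Benjamini-Hochberg over 54613 probe sets. Scripts were tested on simulated data. Gene symbols are those of the platform annotation (41091 probe sets with 1 symbol, 1801 with several, 11721 with none). Every gene of the family is named, its brightest probe set by mean signal first and the others by range or count, with values on every array for it and for any probe set called or at the study's thresholds. The text also gives BAD 232660_at, MCL1 200797_s_at, BAX 208478_s_at and dimmer probe sets of XIAP, CFLAR and USP9X, chosen after their values were seen. From the list of related genes the 6 of lowest p in each comparison are named, by the brightest probe set above background. The members and lists were chosen with earlier results of these data known. Some genes of the lists are not reported here.

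Deviations of same-numbered POSTN and control arrays from their group means correlated at 0.53, 0.23 and 0.24 above background and at 0.088, 0.034 and 0.025 over all probe sets. Above background, POSTN array 3 with control array 2 gave 0.20 and POSTN array 2 with control array 3 gave 0.15. Arrays numbered 1 with those of another number gave -0.36 to -0.30. Deviations from a group mean cancel out within the group, so these negative values follow with the 0.53 and are no separate evidence. By the 0.53 number 1 stood apart, while numbers 2 and 3 were hardly told from each other. The main POSTN fits held the condition alone, so their standard errors and intervals treat the arrays as unpaired. Same-numbered arrays were treated as pairs only where a replicate block was fitted as an alternative. This pairing comes from the values above background, since the labels do not state it. The other alternatives were quantile normalization, centring on medians, log2(signal + 50), only probe sets above background, no mean-variance trend, each array left out in turn, both arrays numbered 1 left out, the methods' t-test, no condition term, an F-test over the numbers, and the median of a gene's probe sets.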

Additional observations from a re-analysis of the deposited data

How the results depend on the processing

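The count of BCL2 family probe sets with an adjusted p under 0.05 between POSTN and control was 0 under every alternative run, as it was over the array. With the replicate block it was 0 too, with a lowest adjusted p of 0.25 over the array, and 2 members and 1463 probe sets of the array at the study's thresholds, so the block changed no call of a member. Those thresholds were met by 0 members with log2(signal + 50), 0 with only probe sets above background, 1 with the methods' t-test and 1 to 2 without each array in turn. Over the array, the count of 1398 became 14 with log2(signal + 50) and 49 with only probe sets above background. Between the replicate numbers, the 2 members called became 1 with arrays centred on their medians, 1 with log2(signal + 50), 0 without the mean-variance trend, 1 with the F-test and 1 to 5 without each array in turn. The array's count of 3389 became 0 without the mean-variance trend, 2230 with the F-test, and 1722 to 4496 without each array in turn, lowest without POSTN array 1 (1722) and control array 1 (1982). The cause was not tested. BCL2L2 209311_at passed the adjusted threshold between the numbers with quantile normalization (-0.47), with only probe sets above background, and without control array 2 (-0.44). It was not the only such member, since BCL2L1 212312_at passed it in 2 of 14 alternatives. Of 186 single POSTN values under alternatives, 23 changed sign, none of them called. As the median of its probe sets above background, BCL2L1 differed by 0.13 with POSTN. Dim members have no value where only probe sets above background were kept. Signal over background limits BCL2 most, with all 4 probe sets in the background range.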
